A study of Mus musculus with 8 samples.

Results

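The genes described here are 10 mouse genes of hepatic glucose output and glycogen turnover: Pcx, Pck1, Fbp1, Slc37a4, G6pc and Ppargc1a for gluconeogenesis, and Ugp2, Gys2, Gbe1 and Pygl for glycogen. They were chosen by symbol, with earlier results of these data known, and all 10 were found among the 26520 genes of the deposited table. PolyA RNA had been sequenced from 4 groups of 2 libraries each: liver nuclear, liver cytoplasmic, MIN6 nuclear and MIN6 cytoplasmic RNA. MIN6 cells come from a mouse insulinoma and serve as a stand-in for pancreatic beta cells, and the series asks which mRNAs are held in the nucleus. Liver came from mice whose strain field reads C57BL/6, C57BL/7, C57BL/8 and C57BL/9 over the 4 liver libraries in turn, and no genotype, treatment, age or feeding state is given in the labels. No gene was altered and no agent was given in any group, as far as the labels say. Liver nuclear RNA was the soluble part of nuclei after removal of chromatin, so RNA bound to chromatin was not in it. The labels do not say that the replicates came from separate animals or cultures, so the p-values measure the spread between these libraries, which may be technical.

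Gluconeogenesis makes glucose from lactate, amino acids and glycerol, and the liver runs it during fasting under the control of glucagon, glucocorticoids and insulin. Glycogen is the branched glucose store that the liver builds after meals and breaks down between them. Both routes meet at the phosphorylated glucose that Slc37a4 carries into the endoplasmic reticulum and G6pc splits into free glucose. Beta cells do not release glucose into the blood and hold another phosphatase of the same family, G6pc2.

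The values are FPKM, fragments scaled by transcript length and library depth, a unit inferred from the authors' tools, since the table's header names only libraries. They were not scaled alike in the libraries. A single read was worth 4.97 and 3.72 times as much FPKM in the liver nuclear libraries as in MIN6 nuclear replicate 1. The factor was 46.4 and 33.9 for liver cytoplasmic, 1.04 for the other MIN6 nuclear and 2.25 and 2.35 for MIN6 cytoplasmic libraries. Summed FPKM ran from 35469 to 1219625 per library. A difference between fractions or tissues on the deposited scale therefore holds a shift common to all genes, and the members' tested ratios are set beside those of all genes tested. The 10 hepatocyte markers summed to 3127 and 2627 FPKM in liver nuclear libraries and to 117457 and 83970 in liver cytoplasmic ones, against 5.08 to 28.9 in the 4 MIN6 libraries, where only 3 or 4 of them were above 0. The 10 beta cell markers summed to 2.98 to 53.1 FPKM in liver, with a single one above 0, against 945 and more in each MIN6 library. Markers of Kupffer and other immune cells summed to 122 to 342 FPKM in the 4 liver libraries, those of endothelium to 82.4 to 117, and those of red cells to 28.0 and 6.19 in nuclear libraries against 2292 and 574 in cytoplasmic ones. Their part in the results was not tested. In bulk RNA, fewer cells of a type and less RNA per cell cannot be told apart.

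In liver, all 10 genes were above 0 in every library, and Pck1 was the highest of them in each. Pck1, the carboxykinase that turns oxaloacetate into phosphoenolpyruvate, stood at 640 and 403 FPKM in liver nuclear libraries and at 2089 and 1711 in liver cytoplasmic ones. It was listed at 0 in all 4 MIN6 libraries. Among all genes of a library it ranked 29 and 26 in the liver nuclear libraries and 79 and 68 in the liver cytoplasmic ones. G6pc, the catalytic phosphatase that releases free glucose, stood at 300 and 201 FPKM in liver nuclear libraries and at 526 and 313 in liver cytoplasmic ones. It too was listed at 0 in all 4 MIN6 libraries, where 3 reads would have given 0.101 and 0.106 FPKM in the nuclear and 0.228 and 0.239 FPKM in the cytoplasmic libraries. That floor covers counting error only.

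By GENCODE M21, on mm10 coordinates, all 10 are protein-coding genes. Pcx spans chr19:4510472-4621752 on the plus strand, Pck1 chr2:173153048-173159273 (plus), Fbp1 chr13:62864753-62888282 (minus), Slc37a4 chr9:44396852-44402968 (plus), G6pc chr11:101367561-101377903 (plus) and Ppargc1a chr5:51454250-51567726 (minus). Ugp2 spans chr11:21321138-21371201 (minus), Gys2 chr6:142422613-142473109 (minus), Gbe1 chr16:70313949-70569716 (plus) and Pygl chr12:70190811-70231488 (minus). Only Ugp2 shared exon bases with another gene, 2.54% of them.

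Windows around the start sites of these genes, from 250 bases before to 50 bases after, were taken from RefSeq on GRCm38.p6, the build that the submitters' notes call mm10. At least 1 window was found for 9 of the 10 genes, the exception being Gys2. The response element for cyclic AMP, through which glucagon acts, is known from the rat Pck1 promoter with the letters TTACGTCA, and the windows of the 4 genes that hold its first bases, TTACGT, are shown 5′ to 3′ with those bases, on either strand, in capitals. In G6pc the match and its reverse complement, ACGTAA, overlap. Only the match in Pck1 goes on to the whole of TTACGTCA. The letters are TTACGTAA in G6pc and TTACGTCC in Ppargc1a, and Slc37a4 holds the reverse complement, ACGTAA.
Pck1, chr2:173152823-173153122, plus strand: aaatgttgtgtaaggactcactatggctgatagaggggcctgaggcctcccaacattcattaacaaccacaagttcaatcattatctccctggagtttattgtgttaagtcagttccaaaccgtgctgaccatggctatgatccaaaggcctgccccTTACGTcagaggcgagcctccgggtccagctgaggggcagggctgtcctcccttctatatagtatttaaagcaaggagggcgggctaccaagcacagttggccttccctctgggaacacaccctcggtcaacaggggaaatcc
G6pc, chr11:101367466-101367765, plus strand: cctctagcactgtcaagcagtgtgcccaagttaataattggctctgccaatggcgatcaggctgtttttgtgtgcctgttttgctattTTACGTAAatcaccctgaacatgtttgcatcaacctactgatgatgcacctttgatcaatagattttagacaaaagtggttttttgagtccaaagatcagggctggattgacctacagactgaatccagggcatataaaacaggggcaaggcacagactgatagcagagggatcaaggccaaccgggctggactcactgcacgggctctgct
Slc37a4, chr9:44396696-44396995, plus strand: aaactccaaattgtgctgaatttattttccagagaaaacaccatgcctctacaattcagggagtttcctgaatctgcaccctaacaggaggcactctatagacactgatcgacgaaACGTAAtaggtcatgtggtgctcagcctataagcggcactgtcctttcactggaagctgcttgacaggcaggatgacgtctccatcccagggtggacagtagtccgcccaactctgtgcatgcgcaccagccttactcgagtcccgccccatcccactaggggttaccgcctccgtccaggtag
Ppargc1a, chr5:51567676-51567975, minus strand: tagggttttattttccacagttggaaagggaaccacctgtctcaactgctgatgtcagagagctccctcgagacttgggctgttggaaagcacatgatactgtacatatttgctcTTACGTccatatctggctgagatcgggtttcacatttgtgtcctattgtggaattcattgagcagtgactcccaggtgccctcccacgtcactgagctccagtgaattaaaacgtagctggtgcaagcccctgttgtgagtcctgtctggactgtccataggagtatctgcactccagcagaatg
The first base in capitals lay 93 bases before the start in Pck1, 162 in G6pc, 134 in Slc37a4 and 135 in Ppargc1a. For Slc37a4 this was 1 of 3 windows that RefSeq gives, and the other two held neither TTACGT nor its reverse complement. The full palindrome TGACGTCA was in no window of the 10 genes and in 1.79% of the 32817 windows of all genes. TTACGT or its reverse complement was in 2.71% of them. The TATA letters TATAAA, in G6pc and in a window of Slc37a4 that is not shown, were in 13.6%, and TATTTAA, in Pck1, was in 4.5%, on either strand. These letters were picked after the windows had been read. A match is a description of the letters and not a site shown to be bound.

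The other genes of gluconeogenesis differed in how much MIN6 held. Fbp1, the fructose bisphosphatase that reverses the phosphofructokinase step, stood at 66.1 and 50.4 FPKM in liver nuclear libraries and at 1061 and 676 in liver cytoplasmic ones. Its only MIN6 value above 0 was 0.145 FPKM, in nuclear replicate 1. Pcx, the mitochondrial pyruvate carboxylase that makes oxaloacetate, stood at 13.1 and 13.3 FPKM in liver nuclear libraries and at 227 and 150 in liver cytoplasmic ones. MIN6 held 10.5 and 4.89 FPKM in nuclear libraries and 2.32 and 2.87 in cytoplasmic ones. Pcx was thus the member with the most MIN6 signal in both nuclear libraries, and the order of its fractions in MIN6 was the opposite of that in liver, with no overlap in either.

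Slc37a4, the transporter that feeds G6pc, stood at 36.9 and 22.5 FPKM in liver nuclear libraries and at 146 and 117 in liver cytoplasmic ones. In MIN6 it was at 3.97 and 1.85 FPKM in nuclear libraries and at 1.17 and 1.72 in cytoplasmic ones, again turned round without overlap. Ppargc1a, a coactivator known to induce Pck1 and G6pc in fasting, was the lowest member in liver, at 0.495 and 0.278 FPKM in nuclear libraries and at 2.31 and 0.422 in cytoplasmic ones. The fractions overlapped. The MIN6 values were 0.0125 and 0.0130 FPKM in nuclear libraries and 0.112 and 0.0586 in cytoplasmic ones.

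The 4 glycogen genes showed wide gaps between the liver fractions. Ugp2, which makes the activated glucose that glycogen is built from, stood at 5.77 and 7.36 FPKM in liver nuclear libraries and at 141 and 89.6 in liver cytoplasmic ones. In MIN6 it was at 0.535 and 0.342 FPKM in nuclear libraries and at 1.25 and 3.52 in cytoplasmic ones, so its fractions were in the same order there. Gys2, the liver glycogen synthase, stood at 13.5 and 9.01 FPKM in liver nuclear libraries and at 106 and 121 in liver cytoplasmic ones, and was listed at 0 in all 4 MIN6 libraries. Gbe1, the branching enzyme, stood at 2.06 and 1.70 FPKM in liver nuclear libraries and at 46.6 and 46.0 in liver cytoplasmic ones. In MIN6 it was at 0.131 and 0.108 FPKM in nuclear libraries, and listed at 0 and at 0.582 in cytoplasmic ones. Pygl, the liver phosphorylase that releases glucose units from glycogen, stood at 27.6 and 17.0 FPKM in liver nuclear libraries and at 331 and 339 in liver cytoplasmic ones. Its MIN6 values were 0.571 FPKM and listed at 0 in nuclear libraries, and listed at 0 and at 0.658 FPKM in cytoplasmic ones.

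**Figure D1:**
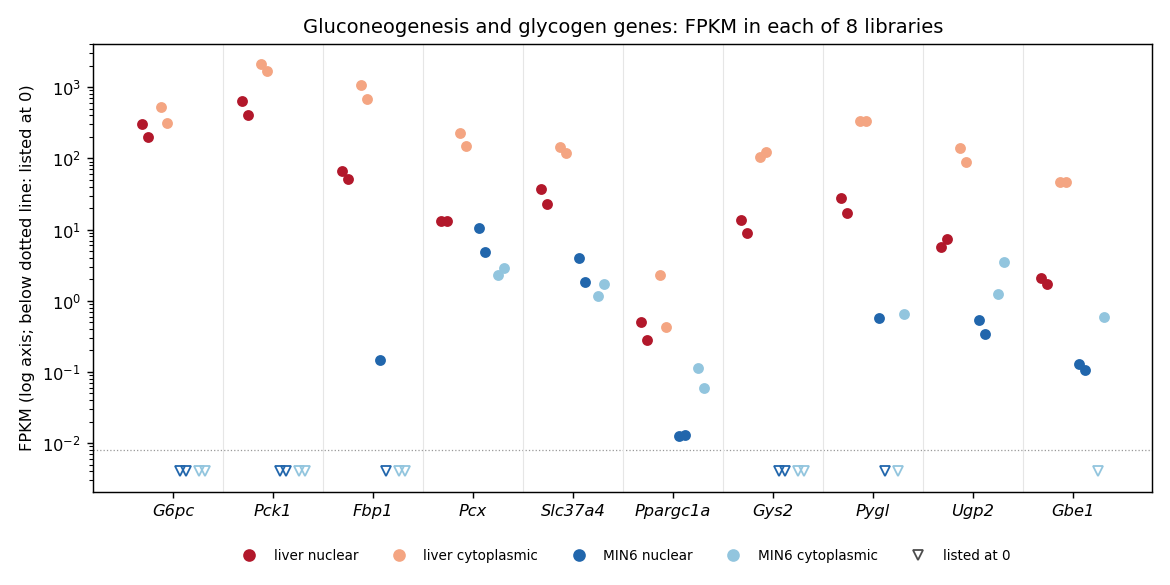
FPKM of the 10 genes in each of the 8 libraries on a log axis, 1 point per library, with triangles below the dotted line for values listed at 0. In liver the nuclear points lie below the cytoplasmic ones for every gene but Ppargc1a, whose fractions overlap, whereas in MIN6 Pcx and Slc37a4 are higher in the nuclear libraries.

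FPKM is a value per length of transcript, so levels can be set beside each other within a library. In liver cytoplasm the order was Pck1, Fbp1, then G6pc and Pygl, then Pcx, then Slc37a4, Ugp2 and Gys2, then Gbe1 and Ppargc1a. The ranges of G6pc and Pygl overlapped, as did those of Slc37a4, Ugp2 and Gys2, so these neighbours did not differ beyond their spread. In liver nuclei the order was Pck1, G6pc, Fbp1, then Slc37a4 and Pygl, then Pcx and Gys2, then Ugp2, Gbe1 and Ppargc1a, with overlap between Slc37a4 and Pygl and between Pcx and Gys2. Among the 10, G6pc ranked 2 in each liver nuclear library, whereas its ranks in liver cytoplasm were 3 and 4. G6pc took 27.1% and 27.7% of the 10 genes' summed FPKM in nuclear libraries and 11.3% and 8.79% in cytoplasmic ones, while Fbp1 took 5.98% and 6.95% in nuclear libraries and 22.7% and 19.0% in cytoplasmic ones.

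The first comparison asked how these mRNAs were divided between the fractions of liver. G6pc averaged 250 ± 69.7 FPKM in nuclear and 420 ± 150 FPKM in cytoplasmic libraries (SD, n = 2 each), so its nuclear level was 59.7% of its cytoplasmic level on the deposited scale. The same percentage was 28.3 for Ppargc1a, 27.4 for Pck1, 22.6 for Slc37a4, 9.91 for Gys2, 7.00 for Pcx, 6.71 for Fbp1, 6.66 for Pygl, 5.69 for Ugp2 and 4.06 for Gbe1. The 10 genes thus covered a range from 4.06% to 59.7%, with the 4 glycogen genes, Pcx and Fbp1 at the low end. Among the 9 genes with a window, the 4 with the highest percentages are those whose windows hold TTACGT. This match was noticed after both had been seen and was not tested. The fractions of Ppargc1a overlapped, so its place in the order is uncertain, and Gys2, the next in order, had no window. No conclusion is drawn from the match.

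The log2 ratios of nuclear over cytoplasmic FPKM + 1 were tested with limma over the 10353 genes that averaged at least 1 FPKM in the 4 liver libraries, and calls were made where p, adjusted by Benjamini-Hochberg over these genes, was under 0.05. Of the 10 members 9 passed that filter and Ppargc1a did not. Lower in nuclear libraries were 8 of the 9, and none was higher. Over all genes tested, 53.1% were called, 50.2% lower and 2.93% higher, and the median ratio was −1.64. The median of the 9 members was −3.71. The median also fell with level, to −2.69 among the 4510 genes averaging 10 FPKM or more and to −4.14 among the 762 averaging 100 FPKM or more. All 9 tested members averaged over 10 FPKM.

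Pck1 averaged 521 ± 168 FPKM in nuclear and 1900 ± 267 FPKM in cytoplasmic libraries (SD, n = 2 each), a log2 ratio of −1.90 (SE 0.47, limma adjusted p = 0.0227). That ratio was at the 43.9th percentile of all genes, near the middle. It lay above the median of −4.14 among genes averaging 100 FPKM or more, a level that Pck1 and G6pc reach. Slc37a4 averaged 29.7 ± 10.1 FPKM in nuclear and 131 ± 20.2 FPKM in cytoplasmic libraries, a ratio of −2.14 (SE 0.48, limma adjusted p = 0.0166) at the 37.6th percentile. G6pc had the highest ratio of the 9, −0.72 (SE 0.51, limma adjusted p = 0.274), at the 74.5th percentile, and was not called. Relative to the median of all genes, the ratio of G6pc was 0.92 higher on the log2 scale, that of Pck1 0.25 lower (−0.25) and that of Slc37a4 0.49 lower (−0.49).

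Gys2, Pcx, Fbp1, Pygl, Ugp2 and Gbe1 lay in the lowest 16.4% of ratios over all genes tested. Pcx, Fbp1 and Pygl averaged over 100 FPKM, where the median was −4.14, and their ratios lay above that median. Gys2, Ugp2 and Gbe1 lay below the median of −2.69 among genes averaging 10 FPKM or more. Gbe1 averaged 1.88 ± 0.26 FPKM in nuclear and 46.3 ± 0.41 FPKM in cytoplasmic libraries, and had the lowest ratio, −4.04 (SE 0.42, limma adjusted p = 0.00351), at the 7.71th percentile. Ugp2 was at −3.92, Pygl at −3.89, Fbp1 at −3.85, Pcx at −3.71 and Gys2 at −3.25, with limma adjusted p from 0.00404 to 0.00522.

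The calls depend on how the libraries are scaled. With each library centred on its median over the genes tested, 5 of 9 members were called lower in nuclear libraries, namely Fbp1, Pcx, Pygl, Ugp2 and Gbe1, at a background of 14.5%, and none higher, where 9.01% of all genes were (23.5% either way). With each library rescaled to the same sum, none was called lower and G6pc was called higher (log2 ratio 2.18, limma adjusted p = 0.0306), at a background of 14.6% higher and 5.16% lower, 19.8% in all. Without either liver nuclear library none was called, and no gene of the whole table was.

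**Figure D2:**
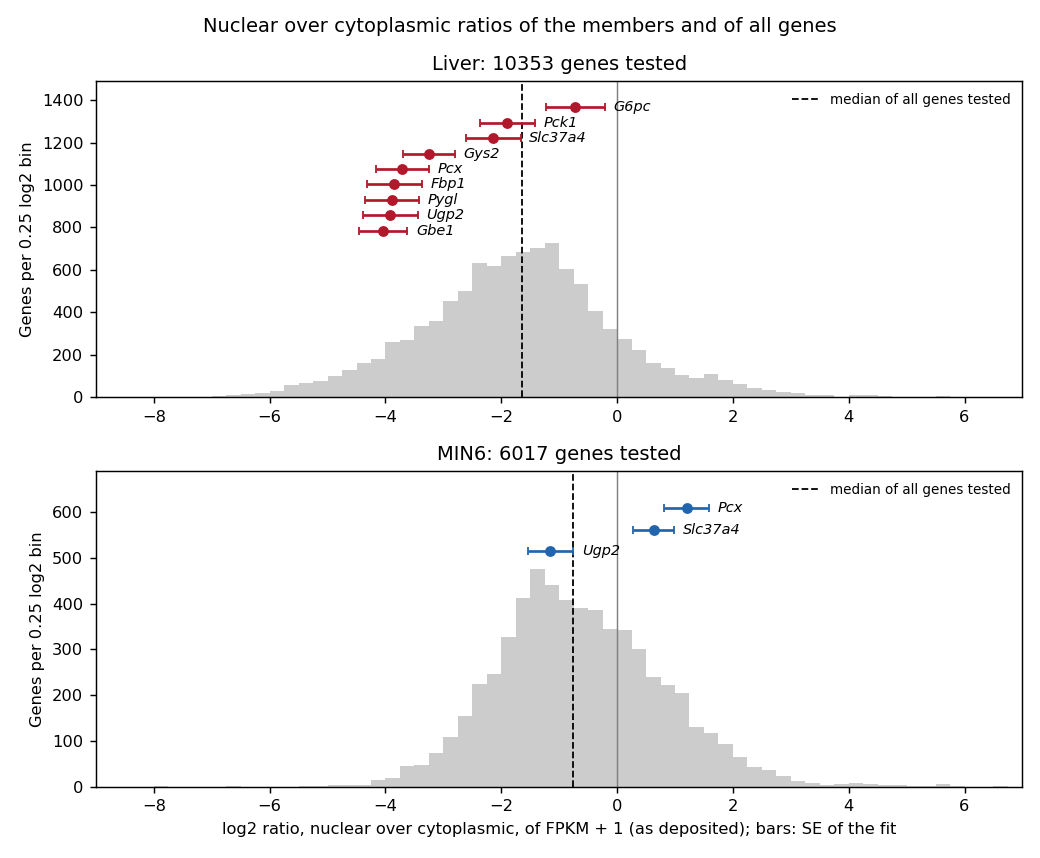
Log2 ratios of nuclear over cytoplasmic FPKM + 1 for the tested members (points, with the SE of the fit) above the distribution of all genes tested (grey bars, genes per bin) in liver and in MIN6. In liver, G6pc at −0.72 lies right of the median of all genes, −1.64, and 6 members lie together near −4; in MIN6, Pcx at 1.20 and Slc37a4 at 0.63 lie right of the median, −0.76, and Ugp2 at −1.15 lies left of it.

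A ratio between members within a library does not depend on the scaling of that library. The ratio of G6pc to Fbp1 was 4.54 and 3.99 in liver nuclear libraries, against 0.496 and 0.463 in cytoplasmic ones, so G6pc was the higher of the pair in the nuclear libraries and the lower in the cytoplasmic ones. The ratio of G6pc to its transporter partner Slc37a4 was 8.13 and 8.93 in nuclear libraries, against 3.61 and 2.68 in cytoplasmic ones. The ratio of G6pc to Pck1 was 0.468 and 0.499 in nuclear libraries, against 0.252 and 0.183 in cytoplasmic ones. G6pc was relatively more nuclear than 8 of the other 9 genes in both nuclear libraries, and overlapped with Ppargc1a.

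Gbe1 stood at the other end. It was relatively more cytoplasmic than 8 of the other 9 genes, and overlapped with Ugp2. The ratio of G6pc to Gbe1 was 145 and 119 in nuclear libraries, against 11.3 and 6.80 in cytoplasmic ones. Over all 45 pairs of members, 33 had ratios that did not overlap between the fractions. The share was 69.0% over all pairs of the 8493 genes tested and above 0 in all 4 liver libraries, so such separation was common. Of these other genes, G6pc was more nuclear than 73.0% without overlap and Gbe1 more cytoplasmic than 80.8%. With 2 libraries against 2, the smallest p that an exact two-sided permutation test can give is 0.333, so single pairs cannot be called.

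**Figure D3:**
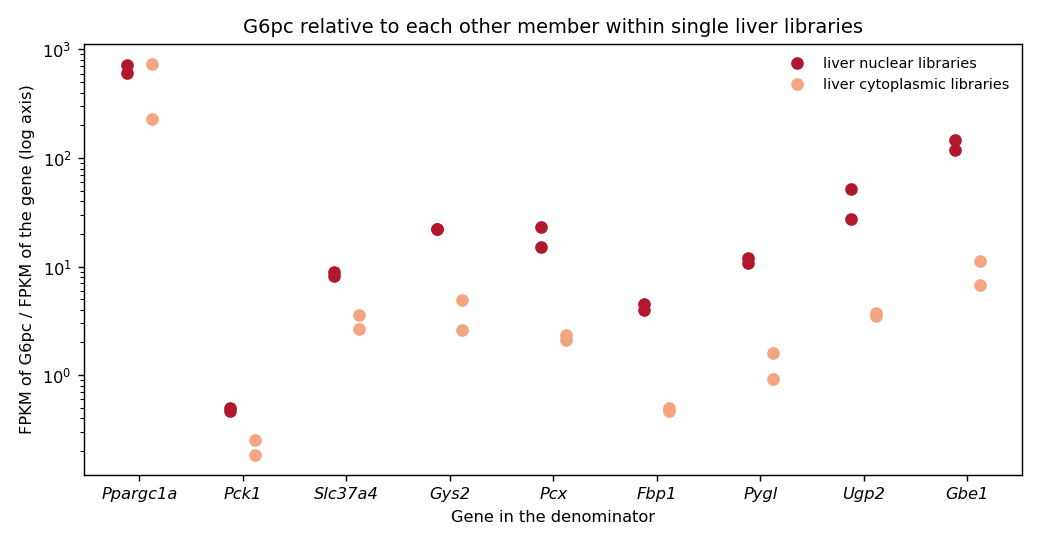
FPKM of G6pc divided by that of each other member, on a log axis, within each of the 2 liver nuclear and 2 liver cytoplasmic libraries, ordered by the ratio of the fraction means. The nuclear points lie above the cytoplasmic ones for each gene except Ppargc1a, from 0.468 and 0.499 against 0.252 and 0.183 for Pck1 to 145 and 119 against 11.3 and 6.80 for Gbe1.

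Whole reads behind these values could be worked out for some genes, because FPKM moves in steps of single reads. The smallest whole numbers that fit, within 0.005 reads, were 1783 and 1600 reads of G6pc in liver nuclear libraries and 335 and 273 in liver cytoplasmic ones. Pcx came to 28 and 38 reads in liver nuclear and 52 and 47 in liver cytoplasmic libraries, Slc37a4 to 71 and 58 in nuclear and 30 and 33 in cytoplasmic ones, and Gys2 to 19 and 17 in nuclear and 16 and 25 in cytoplasmic ones. Ppargc1a rested on 8 and 6 reads in nuclear and on 4 and 1 in cytoplasmic libraries. Among these 5 genes Ppargc1a has the fewest reads behind it in each liver library. The true number can be a multiple of these, and the multiple need not be the same for each gene. For Pck1, Fbp1, Pygl, Ugp2 and Gbe1 no such steps were found.

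In MIN6 cells 3 members passed the same filter over 6017 genes, which were Pcx, Slc37a4 and Ugp2. Pcx was called higher in nuclear libraries and the other two were not called. Over all genes tested, 58.0% were called, 11.8% higher and 46.1% lower, with a median log2 ratio of −0.76. Pcx averaged 7.71 ± 3.99 FPKM in nuclear and 2.60 ± 0.39 FPKM in cytoplasmic libraries (SD, n = 2 each), a log2 ratio of 1.20 (SE 0.38, limma adjusted p = 0.0419) at the 89.9th percentile. Behind it were at least 112 and 50 reads in nuclear and at least 11 and 13 reads in cytoplasmic libraries. Without MIN6 nuclear replicate 1, its higher nuclear library, the ratio was 0.71 (limma adjusted p = 0.0856) and the call was lost, as it was without either cytoplasmic library. Over all alternatives the limma adjusted p ran from 0.00577 to 0.210.

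Slc37a4 averaged 2.91 ± 1.50 FPKM in MIN6 nuclear and 1.45 ± 0.39 FPKM in MIN6 cytoplasmic libraries, a log2 ratio of 0.63 (SE 0.35, limma adjusted p = 0.178) at the 81.3th percentile. At least 38 and 17 reads in nuclear and at least 5 and 7 reads in cytoplasmic libraries lay behind it. With libraries centred on their medians it was called, at 1.23 (limma adjusted p = 0.0175), as was Pcx, at a background of 23.6% higher and 29.2% lower, 52.8% in all. Rescaling to a common sum called the same pair, at 18.1% higher and 29.5% lower, 47.5% in all. Ugp2 averaged 0.44 ± 0.14 FPKM in nuclear and 2.38 ± 1.61 FPKM in cytoplasmic libraries, a ratio of −1.15 (SE 0.39, limma adjusted p = 0.0504) at the 39.1th percentile. G6pc, Pck1, Gys2, Fbp1, Pygl, Gbe1 and Ppargc1a were too low in MIN6 for a test of their fractions.

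The difference between the tissues' ratios was tested as an interaction term in a fit of all 8 libraries. Lower in liver than in MIN6 were 8 of 9 members, against 34.9% of 9876 genes, with 2.55% higher and 37.4% called in all. For 6 of the 9, MIN6 values were at or near 0, so the term repeats the liver ratio on the log2(FPKM + 1) scale. Of the 3 members measured in both tissues, Pcx had a nuclear over cytoplasmic ratio of −3.71 in liver and 1.20 in MIN6, a difference of −4.91 (SE 0.56, limma adjusted p = 0.0025). It lay at the 0.98th percentile of all genes and stayed called with median centring (−3.69, limma adjusted p = 0.00647) and with rescaling to a common sum (−3.13, limma adjusted p = 0.0462). The differences of Slc37a4, −2.77 (SE 0.56, limma adjusted p = 0.0121), and of Ugp2, −2.77 (SE 0.59, limma adjusted p = 0.0145), were not called under either of those scalings. Fractions were prepared in another way in each tissue, so tissue and preparation cannot be told apart here.

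The comparison of tissues within a fraction asked how much more of each mRNA liver held. G6pc, Pck1, Gys2, Fbp1, Pygl and Gbe1 passed the filter on low values through liver alone, so their calls over MIN6 followed from the filter and their fitted ratios depend on the pseudocount. Their values by library are given above. In cytoplasmic libraries all 9 members that passed were called higher in liver than in MIN6, at a background of 74.3% called higher and 4.06% lower, 78.3% in all, with a median log2 ratio of 2.21. With median centring all 9 were called higher, at 20.9% higher and 21.7% lower over all genes (42.6% in all). With rescaling to a common sum 8 were, Ugp2 being the exception, at 15.9% higher and 34.5% lower (50.4% in all). These counts include the genes that liver alone carried through the filter, so only Pcx, Slc37a4 and Ugp2 can be read from them.

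The 3 members measured in both tissues give sizes. Pcx averaged 188 ± 54.5 FPKM in liver cytoplasm and 2.60 ± 0.39 FPKM in MIN6 cytoplasm, 72.5-fold higher in liver on the deposited scale and 4.30-fold higher with rescaling to a common sum. Slc37a4 was 90.7-fold higher in liver cytoplasm on the deposited scale and 5.48-fold with rescaling. Ugp2 was 48.4-fold higher on the deposited scale and 2.89-fold with rescaling. Their log2 ratios lay at percentiles 91.9 to 93.6 of all genes.

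In nuclear libraries 8 of the 9 were called higher in liver than in MIN6, at a background of 38.1% higher and 3.32% lower, 41.4% in all. The exception was Pcx, which averaged 13.2 ± 0.14 FPKM in liver nuclei and 7.71 ± 3.99 FPKM in MIN6 nuclei, a log2 ratio of 0.78 (SE 0.40, limma adjusted p = 0.156) at the 44.0th percentile. Its ratio took the opposite sign with median centring, at −0.44, and with rescaling, at −1.05. Slc37a4 was 10.2-fold higher in liver nuclei on the deposited scale and 2.59-fold with rescaling, and Ugp2 was 15.0-fold and 4.17-fold higher. With median centring 6 were called higher, and Gbe1 and Ugp2 no longer were, at a background of 14.1% higher and 13.6% lower, 27.6% in all. Under rescaling the background was 22.3% higher and 16.4% lower, 38.7% in all, and 7 members were called higher. The nuclear counts, too, include the genes that liver alone carried through the filter.

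Several of these steps have further isoenzymes. G6pc2, the phosphatase known from beta cells, was listed at 0 in all 4 liver libraries and stood at 16.6 and 27.1 FPKM in the nuclear and 125 and 141 FPKM in the cytoplasmic libraries of MIN6, the reverse of G6pc in both tissues. Behind the MIN6 values were at least 371 and 583 reads in nuclear and 1249 and 1347 reads in cytoplasmic libraries. Its MIN6 log2 ratio was −2.60 (SE 0.32, limma adjusted p = 0.00269), at the 6.86th percentile of all genes. G6pc3, the form found in most tissues, was low in all groups, at 9.85 and 5.73 FPKM in liver nuclear, 5.11 and 3.73 in liver cytoplasmic, 7.16 and 4.12 in MIN6 nuclear and 3.46 and 2.85 in MIN6 cytoplasmic libraries. It was not called between liver and MIN6 (limma adjusted p = 0.413 in nuclear and 0.385 in cytoplasmic libraries), but with median centring it was called lower in liver cytoplasm (log2 ratio −2.06, limma adjusted p = 0.00169). The smallest whole numbers that fit for G6pc3 were 1 and 1 reads in liver cytoplasmic libraries, against 18 and 14 in liver nuclear ones. The true numbers can be a multiple, but that call may rest on single reads.

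Pck2, the mitochondrial carboxykinase, stood at 11.1 and 4.81 FPKM in MIN6 nuclear and 2.35 and 1.71 FPKM in MIN6 cytoplasmic libraries. In liver it was at 0.315 FPKM and listed at 0 in nuclear libraries, and listed at 0 and at 1.07 FPKM in cytoplasmic ones. The smallest whole numbers that fit were 2 and 0 reads in nuclear and 0 and 1 in cytoplasmic libraries, and the true numbers can be a multiple. In nuclear libraries Pck2 was called lower in liver (log2 ratio −2.87, SE 0.49, limma adjusted p = 0.00413). It passed the filter of that fit through MIN6 alone, so the call followed from the filter. In MIN6 it was called higher in nuclear than in cytoplasmic libraries (1.48, SE 0.41, limma adjusted p = 0.0272), at the 92.5th percentile. Fbp2, the muscle bisphosphatase, was at 0.761 and 0.570 FPKM in liver nuclear libraries and listed at 0 in every other library.

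Gys1, the glycogen synthase of muscle and most other tissues, stood at 1.90 and 0.884 FPKM in liver nuclear, 8.06 and 1.18 in liver cytoplasmic, 4.17 and 2.78 in MIN6 nuclear and 2.82 and 2.05 in MIN6 cytoplasmic libraries. Its liver cytoplasmic libraries stood far apart. Pygb, the brain phosphorylase, was at 0.796 and 0.447 FPKM in liver nuclear, 5.58 and 5.43 in liver cytoplasmic, 0.761 and 0.791 in MIN6 nuclear and 2.25 and 2.83 in MIN6 cytoplasmic libraries. It was called lower in nuclear than in cytoplasmic libraries in liver (log2 ratio −2.01, SE 0.42, limma adjusted p = 0.0145) and in MIN6 (−0.99, SE 0.24, limma adjusted p = 0.0191). Both ratios were near the middle of all genes, at percentiles 40.8 and 43.5, and with median centring neither was called (−0.28, limma adjusted p = 0.575 in liver, and −0.39, limma adjusted p = 0.251 in MIN6). For Pygb the smallest whole numbers that fit were 4 and 3 reads in liver nuclear and 3 and 4 in liver cytoplasmic libraries. The true numbers can be a multiple. In both tissues Pygb passed the filter through the cytoplasmic libraries alone. Pygm, the muscle phosphorylase, was listed at 0 in liver nuclear replicate 1 and at 0.443 FPKM in replicate 2, listed at 0 in both liver cytoplasmic libraries, at 0.596 and 0.620 FPKM in MIN6 nuclear libraries, and listed at 0 and at 0.280 FPKM in MIN6 cytoplasmic ones.

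**Figure D4:**
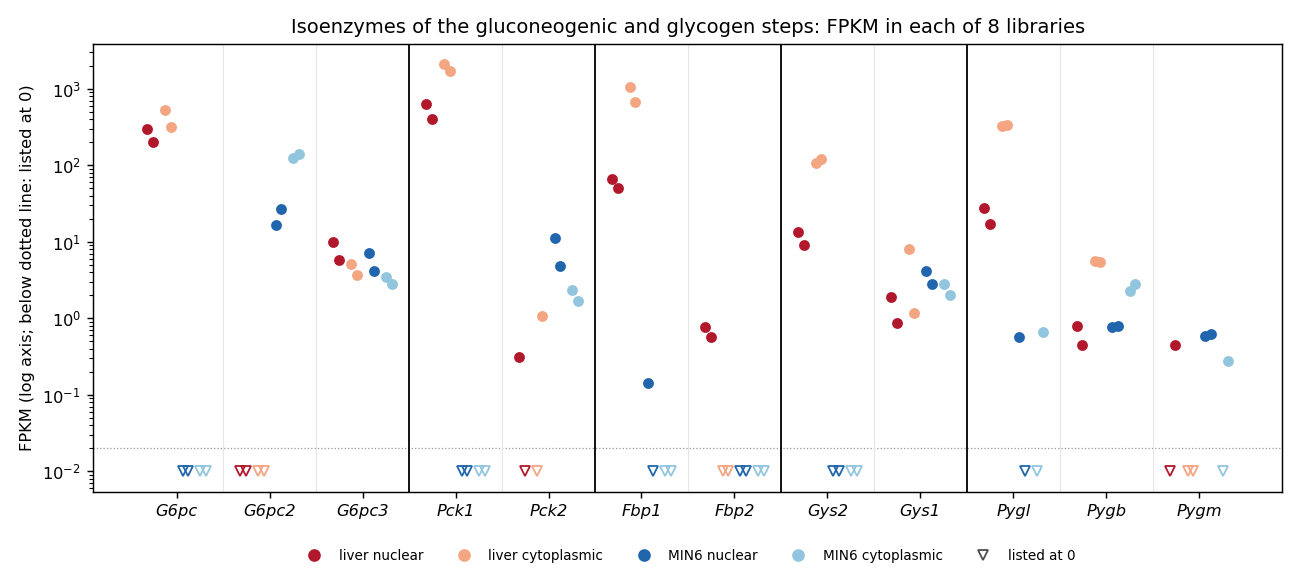
FPKM of the isoenzymes of 5 steps in each of the 8 libraries, on a log axis, with triangles for values listed at 0 and black lines between steps. G6pc is at 201 to 526 FPKM in liver and listed at 0 in MIN6, and G6pc2 is at 16.6 to 141 FPKM in MIN6 and listed at 0 in liver.

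The other genes of the pathways were taken from 4 lists. Of 25 genes of other gluconeogenic steps and substrate entry, 22 were tested between the liver fractions, and 20 were called lower in nuclear libraries and none higher, with a median log2 ratio of −4.31. The share over all genes was 50.2% lower, with a median of −1.64. The lowest were Gapdh, the glyceraldehyde phosphate dehydrogenase, at −6.72 (limma adjusted p = 0.00346), and Eno1, an enolase, at −5.99 (limma adjusted p = 0.00346). Gapdh stood at 15.3 and 11.0 FPKM in liver nuclear libraries, against 1549 and 1404 in cytoplasmic ones. In MIN6, 14 of 20 tested were called lower and 1 higher, with a median of −2.20, against 46.1% lower and a median of −0.76 over all genes. Gapdh, at −4.40, and Mdh1, the cytosolic malate dehydrogenase, at −3.95, were the lowest (limma adjusted p = 0.00144 each), and Pck2 was the gene called higher.

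Of 29 rows of other glycogen enzymes and regulators, 19 were tested in liver, with a median of −1.96, only 0.31 below that of all genes (−0.31). Against 50.2% lower and 2.93% higher over all genes, 12 of them were called lower in nuclear libraries and none higher. The lowest were Pgm2, a phosphoglucomutase, at −3.90 (limma adjusted p = 0.00627), and Ppp1cb, a catalytic subunit of the phosphatase that acts on glycogen enzymes, at −3.66 (limma adjusted p = 0.0039). In MIN6, 9 of 11 were called lower and none higher, with a median of −1.13, but with median centring 3 were lower and 2 higher. The shares over all genes were 46.1% lower and 11.8% higher, and 29.2% and 23.6% with centring. Ppp1ca, at −2.09 (limma adjusted p = 0.00232), and Ppp1cb, at −2.07 (limma adjusted p = 0.00229), which are sister subunits, were the lowest. In MIN6, Ppp1cb passed the filter through the cytoplasmic libraries alone, so its call followed from the filter.

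Of 17 transcriptional regulators of gluconeogenesis, 15 were tested in liver, with a median of −0.89. Against 50.2% lower and 2.93% higher over all genes, 5 of them were called lower in nuclear libraries and 1 higher. Cebpa, a factor that activates liver metabolic genes, was the lowest at −4.39 (limma adjusted p = 0.00346), and Hnf4a, a nuclear receptor of hepatocyte identity, came next at −3.24 (limma adjusted p = 0.00852). Cebpa stood at 6.35 and 7.16 FPKM in liver nuclear libraries, against 190 and 136 in cytoplasmic ones. Ppargc1b, the relative of Ppargc1a, was the gene called higher (limma adjusted p = 0.0242). It was at 2.35 and 1.91 FPKM in liver nuclear libraries and listed at 0 in both cytoplasmic ones, where a single read is worth most. Ppargc1b passed the filter through the nuclear libraries alone, so its call followed from the filter. In MIN6, 6 regulators were tested, and Foxa2, a pioneer factor of liver and islets, was the only one called, lower at −1.13 (limma adjusted p = 0.0166). With median centring Foxa2 was at −0.53 (limma adjusted p = 0.177), and 3 others, Kat2a, Nr4a1 and Crtc2, were called higher. Over all MIN6 genes tested, 46.1% were called lower without centring, and 23.6% higher with it.

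Of 11 glycolytic enzymes and regulators that oppose gluconeogenesis, 10 were tested in liver, with a median of −1.45. Against 50.2% lower and 2.93% higher over all genes, 4 of them were called lower in nuclear libraries and none higher. Pklr, the liver pyruvate kinase, was the lowest at −4.16 (limma adjusted p = 0.00472), and Pkm, the other pyruvate kinase gene, came next at −2.72 (limma adjusted p = 0.00808). In MIN6, 1 of 7 was called lower, Hk1 at −1.36 (limma adjusted p = 0.00667), a hexokinase of most tissues. Among the 7, 1 was called higher, against 46.1% lower and 11.8% higher over all genes. With median centring, the counts in liver were 14 lower and 1 higher for other gluconeogenic steps, 3 lower and 1 higher for glycogen, 1 lower and 3 higher for regulators and 1 lower and 2 higher for glycolysis. In MIN6 they were 13 lower and 3 higher for other gluconeogenic steps and 0 lower and 2 higher for glycolysis. Over all genes, centring left 14.5% called lower and 9.01% higher in liver, and 29.2% lower and 23.6% higher in MIN6.

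**Figure D5:**
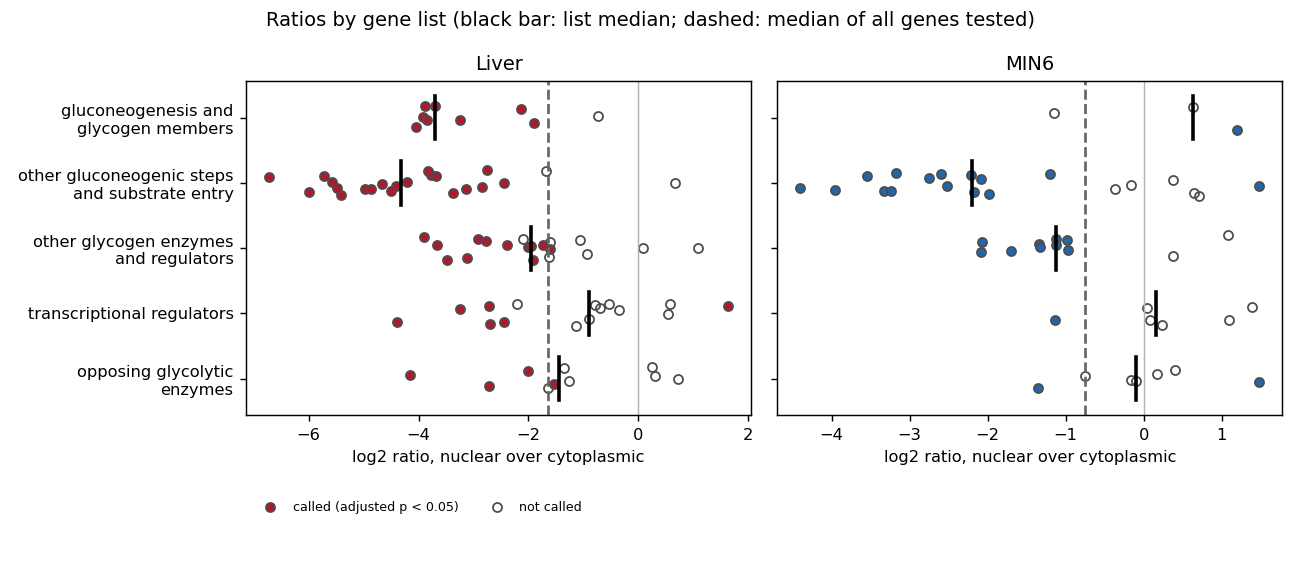
Log2 ratios of nuclear over cytoplasmic FPKM + 1, 1 point per tested gene, for the members and the 4 other lists in liver and in MIN6. Filled points were called, black bars are list medians and dashed lines are the medians of all genes tested, −1.64 in liver and −0.76 in MIN6; in liver the members' median, −3.71, and that of other gluconeogenic steps, −4.31, lie left of that line and that of the regulators, −0.89, right of it.

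Between the tissues' cytoplasmic libraries, where 74.3% of all genes were called higher in liver, 19 of 24 tested genes of other gluconeogenic steps were higher in liver than in MIN6 and 1 was lower, G6pc2. Aqp9, the glycerol channel of hepatocytes, stood at 164 and 129 FPKM in liver cytoplasm, and at 0 and 0.0738 FPKM in MIN6 cytoplasm (limma adjusted p = 2.54e-06). Of the glycogen list 13 of 17 were higher and none lower, a share near that of all genes, with Pgm2 at a log2 ratio of 5.13 (limma adjusted p = 0.000127). Ppp1r3c, a subunit that targets phosphatase to glycogen, was at 16.5 and 34.2 FPKM in liver cytoplasm and listed at 0 in all 4 MIN6 libraries. Of the regulators 12 of 14 were higher, among them Hnf4a at 7.08 (limma adjusted p = 1.36e-05) and Cebpa (limma adjusted p = 2.28e-06), which had 1 MIN6 library above 0. The orphan receptor Nr4a1 was lower (limma adjusted p = 0.0168), listed at 0 in both liver cytoplasmic libraries and at 1.81 and 1.71 FPKM in the MIN6 ones. Of the glycolytic list 6 of 10 were higher and 2 lower, Pfkp, a phosphofructokinase, at −2.14 (limma adjusted p = 0.0493) and Pkm at −1.16 (limma adjusted p = 0.034). Gckr, a regulatory protein of hepatic glycolysis, was at 87.6 and 128 FPKM in liver cytoplasm and Pklr at 48.0 and 95.0, and both were listed at 0 in MIN6 cytoplasm. Aqp9, Ppp1r3c, Hnf4a, Cebpa, Gckr and Pklr passed the filter through liver alone, and G6pc2 and Nr4a1 through MIN6 alone. Their calls followed from the filter, and the list counts include such genes. With median centring the counts were 12 higher and 4 lower, 4 and 3, 6 and 3, and 3 and 3 in the same order of lists.

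Beside those centred cytoplasmic counts, 20.9% of all genes were called higher in liver and 21.7% lower, 42.6% in all.

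Between the nuclear libraries, where 38.1% of all genes were called higher in liver, 12 of 24 other gluconeogenic genes were higher in liver than in MIN6 and 5 lower. With median centring 10 were higher and 9 lower, at a background of 14.1% higher and 13.6% lower. Aqp9 stood at 23.7 and 18.1 FPKM in liver nuclei and was listed at 0 in MIN6 nuclei (limma adjusted p = 5.93e-05), and G6pc2 and Pck2 were the lowest. Of the glycogen list 7 of 17 were higher and none lower, a share near that of all genes, and with median centring 3 were higher and 3 lower. Ppp1r3c (limma adjusted p = 0.00129), at 5.70 and 8.75 FPKM in liver nuclei, and Ppp1r3b (limma adjusted p = 0.000194), another targeting subunit, at 6.87 and 6.94 FPKM there, led it, against at most 0.0121 FPKM in a MIN6 nuclear library. Of the regulators 9 of 14 were higher and none lower, led by Hnf4a at a log2 ratio of 4.60 (limma adjusted p = 0.000257) and Cebpb, a relative of Cebpa, at 4.24 (limma adjusted p = 0.000272), and with centring 4 were higher and 1 lower. Of the glycolytic list 4 of 10 were higher and 1 lower, and with centring 1 was higher and 3 lower. Gckr, at 148 and 117 FPKM in liver nuclei and listed at 0 in MIN6, and Pfkfb1, a bifunctional regulator of glycolysis in liver, at a ratio of 2.74 (limma adjusted p = 0.00439), were the highest, and Pkm was lower at −3.13 (limma adjusted p = 0.00129). Aqp9, Ppp1r3b, Ppp1r3c, Hnf4a, Cebpb, Gckr and Pfkfb1 passed the filter through liver alone, and G6pc2 and Pck2 through MIN6 alone. Their calls followed from the filter, and these counts include such genes.

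The gene nearest in pattern to each tested member was sought among the 5981 other genes that averaged 10 FPKM or more in at least 1 group, by the Euclidean distance of log2(FPKM + 1) over the 8 libraries after each gene was centred on its mean. G6pc was nearest to G0s2, an inhibitor of lipolysis, at a distance of 0.42. In liver, G0s2 stood at 378 and 173 FPKM in nuclear libraries and at 482 and 300.2 in cytoplasmic ones, and it was listed at 0 in MIN6. Pck1 was nearest to H2-Q10, a histocompatibility gene of liver, at 0.36, which in liver stood at 785 and 452 FPKM in nuclear libraries and at 2305 and 1780 in cytoplasmic ones. Fbp1 was nearest to 2810007J24Rik at 0.31, Slc37a4 to Cdhr5 at 0.38, Gys2 to Cald1 at 0.42, Ugp2 to Dram2 at 0.52, Gbe1 to Inhbc at 0.61, Pygl to Ephx1 at 0.66 and Pcx to Trap1 at 0.97. Pcx was thus the member with the most distant nearest gene.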

How the data were processed

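PolyA RNA of nuclear and cytoplasmic fractions of mouse liver and MIN6 cells was measured in 8 libraries. Per the submitters' processing notes, TopHat, Cuffdiff and build mm10 were used. Their versions, the annotation and any filters are not stated in the labels or notes. The deposited FPKM values are the authors' own, a unit inferred from Cuffdiff, as the file header names only libraries. Depth per library is not given as counts. The relative worth of a read was estimated from steps between low values. Precision is limited by 2 libraries a group.

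Grouping was by title. In MIN6 the source label contradicts the title on which fraction a sample is. Nuclear long noncoding RNAs summed to 448 and 133 FPKM in the MIN6 libraries titled nuclear and to 9.35 and 3.98 in those titled cytoplasmic. Values were analysed as log2(FPKM + 1), with a pseudocount of 1, by limma 3.58.1 in R 4.3.3 (lmFit, eBayes without trend), two-sided, over genes averaging 1 FPKM or more, with Benjamini-Hochberg adjustment over all genes tested and calls under 0.05. Fractions were compared within the 4 libraries of a tissue, tissues and the interaction over all 8. Fits were tested on simulated data with 200 changed genes. Ratios within libraries and plots used Python 3.11.15 with pandas 2.3.3. Alternatives were median centring, rescaling to a sum of 1000000, a pseudocount of 0.1, no filter or a mean of 5 FPKM, a variance trend, a replicate block, other samples in the fit, and leaving out each library.

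The members, lists and tests were chosen with earlier results of these data known. All members are named, with all isoenzymes of their steps, the 2 called genes furthest each way per list in the fraction and tissue comparisons, and the nearest gene in pattern to each tested member. Some genes under this rule are not reported here. All 10 members matched GENCODE M21 by identifier and symbol. Of the list genes, 3 had no row. Cell type markers were summed per library.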

Additional observations from a re-analysis of the deposited data

Results flagged for a closer look

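Of the 3 members tested in both tissues, all had a nuclear over cytoplasmic log2 ratio that differed between liver and MIN6 by the interaction term of limma. For Pcx the liver ratio minus the MIN6 ratio was −4.91 (limma adjusted p = 0.0025), with both liver nuclear libraries below both liver cytoplasmic ones and both MIN6 nuclear libraries above both MIN6 cytoplasmic ones. For Slc37a4 it was −2.768 (limma adjusted p = 0.0121), with the same orders of libraries. For Ugp2 it was −2.765 (limma adjusted p = 0.0145), with the nuclear libraries lower in both tissues. The median of all genes differed between the tissues too, and with median centring the difference was called for Pcx but not for Slc37a4 (−1.55, limma adjusted p = 0.0738) or Ugp2 (−1.55, limma adjusted p = 0.123). The preparation of fractions differed between the tissues and cannot be told apart from them.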

How the results depend on the processing

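Scaling decided most. Between the liver fractions, median centring gave 5 called members, all 5 lower, and rescaling gave 1, with 1 higher and 0 lower. G6pc reversed to 1.01 with centring, and with rescaling G6pc reversed to 2.18, Pck1 to 1.01 and Slc37a4 to 0.73. With 1 library left out, calls ran from 0 to 8 members, and from 0 to 8 lower. They were 0 without either liver nuclear library, where no gene of the table was called and 8 and 6 members had an unadjusted p under 0.05. In MIN6, called members were 2, both higher, with centring and with rescaling, and 0 higher and 1 lower (Ugp2) with a pseudocount of 0.1. They were 0 without a filter, with a mean of 5 FPKM, with the replicate block and with all 8 libraries in 1 fit, with 1 or 2 members at an unadjusted p under 0.05. With a trend they were 2, of which 1 lower. With 1 library left out they ran from 0 to 1, higher 0 to 1 and lower 0 to 1. In the nuclear tissue comparison Pcx reversed to −0.44 with centring and −1.05 with rescaling. For the interaction, called members were 5, all 5 lower, with centring, 2 with rescaling (1 higher, 1 lower), 4, all 4 lower, with a pseudocount of 0.1, and 5 to 8, lower 5 to 8, with 1 library left out. Shares of all genes called are given for the interaction only for the main setting, 34.9% lower and 2.55% higher. Its counts under the other settings have no such share beside them, and nothing is read from them. For the interaction, G6pc reversed to 0.49 with centring, and with rescaling G6pc reversed to 2.18, Pck1 to 1.01 and Ugp2 to 0.24. Of single members' values, 212 of 223 under other test settings and 231 of 263 with 1 library left out kept direction and call. Under other scaling 45 of 78 did, and 10 reversed.

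Equal replicate numbers were not shown to pair the libraries. The correlations of deviations from group means were 0.0108 to 0.0484. They rest on 2 libraries per group and cannot tell whether libraries of equal number shared an animal or culture. The replicate block called 0 members between MIN6 fractions, against 1 without it, and left the counts of called members at 8 between liver fractions, 9 and 8 between tissues and 8 for the interaction.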
